A study of Mus musculus with 6 samples.

Results

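The genes of the cytosolic translation initiation and elongation factors were followed in mouse macrophages given the chemokine CCL3. They were chosen by name and type alone, as protein-coding genes whose symbol begins with Eif1 to Eif6, Eef1 or Eef2, which gave 68 of the 54532 genes in the deposited table and of its 22046 protein-coding genes. The rule also takes in kinases, methyltransferases and binding proteins named after a factor. Messenger RNA had been sequenced from 3 CCL3 and 3 control libraries. Both groups were bone marrow-derived macrophages, cultured for 7 days, from the inbred mouse strain C57BL/6J. The CCL3 group then received recombinant CCL3 protein for 3 days, and the control group was labelled only as control. The submitters' design text leaves room for CCL3 in the first culture as well. The handling of control cells over the last 3 days was not given in the sources used here. Nothing in the labels ties a library to its own animal or culture, so the p-values rest on a spread between libraries that could be technical alone.

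Translation begins when the small ribosomal subunit, loaded by eIF2 with the initiator transfer RNA and held by eIF1, eIF1A and eIF3, is recruited to the messenger RNA cap by eIF4E, eIF4G and eIF4A and scans to the start codon. eIF5 and eIF5B then release the initiation factors and join the large subunit. In elongation, eEF1A brings each aminoacyl transfer RNA to the ribosome, eEF1B reloads eEF1A with GTP, and eEF2 moves the ribosome by 1 codon. Macrophages are known to control this machinery during activation through kinases that act on eIF2, on the eIF4E binding proteins and on eEF2. Those controls act on proteins, which messenger RNA levels do not report.

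Levels are FPKM, fragments scaled to gene length and to a divisor for each library. Each library held between 17399194 and 18609737 fragments, recovered from these values, and the median tested factor had between 793 and 1316 fragments, depending on the library. All 8 macrophage markers examined averaged at least 1 FPKM, and 1 of them, Cd68, rose and 2, Lyz2 and Cd14, fell (0 to 1 and 1 to 2 without 1 library). Their summed level, most of it Lyz2, was 15280, 14450 and 10810 FPKM in the CCL3 libraries. In the control libraries it was 28670, 22980 and 16820 FPKM. Cd14 was called in all 6 fits without 1 library, Cd68 in 4 and Lyz2 in 1. Under TPM Cd68 had a log2 fold change of 0.0001 without a call. Over all genes tested, 18.0% were called higher with CCL3 and 14.5% lower, a share to set beside each count of markers here. Of 15 proliferation markers 4 rose, and their summed level was 452, 296 and 657 FPKM in the CCL3 libraries, against 144, 187 and 468 FPKM in the control libraries. The count was 11 without control replicate 3 and 2 without control replicate 2. Of 9 dendritic cell markers 3 were tested, and all 3, Ccr7, Batf3 and Fscn1, rose. The 9 markers summed to 8.12, 9.997 and 8.89 FPKM in CCL3 libraries and 4.79, 3.38 and 3.68 FPKM in control libraries. Of those not tested, Cd209a was lower in every CCL3 library than in any control library, with means of 0.0253 and 0.519 FPKM. Flt3, Zbtb46, Xcr1 and Clec9a also had lower means with CCL3, and Siglech had a higher one. Markers of neutrophils summed to 29.1 to 50.8 FPKM with CCL3 and 18.2 to 37.4 FPKM in control, of red cells and megakaryocytes to 30.2 to 46.7 FPKM with CCL3 and 19.9 to 37.6 FPKM in control, and of B cells to 12.8 to 25.0 FPKM with CCL3 and 13.1 to 21.2 FPKM in control. Markers of T and NK cells, stroma and endothelium summed to at most 8.84 FPKM in any CCL3 library and 4.63 FPKM in any control library. Calls among these lists were also higher with CCL3: S100a8 of 3 tested neutrophil genes, Hba-a1 and Itga2b of 3 tested red cell and megakaryocyte genes, Col1a1 and Col1a2 of 2 tested stromal genes and Cd4, the 1 tested T and NK cell gene. None of the 2 B cell genes and the 1 endothelial gene tested was called. Itga2b was called in all 6 fits without 1 library, Hba-a1 in 5, S100a8 in 4, Col1a1 and Col1a2 in 2 and Cd4 in 1. Ccr7, Itga2b, Hba-a1, Col1a2 and Bub1, among the 4 proliferation markers that rose, averaged under 1 FPKM in control. They reached a mean of 1 FPKM, the level tested, only through the CCL3 libraries. The part of these cells in the results that follow was not tested. Along the first principal component the third control library lay closest to the CCL3 libraries among the controls. In bulk RNA, fewer cells of a type and less RNA per cell cannot be told apart.

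Of the 68 factor genes, 61 reached a mean of 1 FPKM and were tested with limma on log2(FPKM + 1); p-values were adjusted over the 9218 tested genes and called under 0.05. CCL3-treated macrophages had more messenger RNA for 13 of them and less for 12. Over all genes tested, 18.0% were called higher and 14.5% lower, which compares with 21.3% and 19.7% of the factors, so the number of calls among the factors was near the background. The median log2 fold change was 0.04 for the factors and 0.0066 for all genes. The groups did not overlap for 32 of the 61 factors, 52.5%, against 48.6% of all genes. Calls went both ways within the eIF3, eEF1B and methyltransferase groups. The counts depended on single libraries: without control replicate 2 there were 2 higher and 6 lower, without control replicate 1 there were 6 and 7, and without CCL3 replicate 3 there were 6 and 8. Of all 9218 genes, 696 were higher and 456 lower without control replicate 2. The counts of all genes were 981 and 676 without control replicate 1, and 1100 and 812 without CCL3 replicate 3. Eef1a2, Eef2, Eef1b2, Eef1e1, Eif3h, Eif3m, Eif4b and Eif4e3 were called in each of the 6 fits that left out 1 library. Of these, Eef1a2 averaged under 1 FPKM in control and reached the level tested only through the CCL3 libraries.

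**Figure D1:**
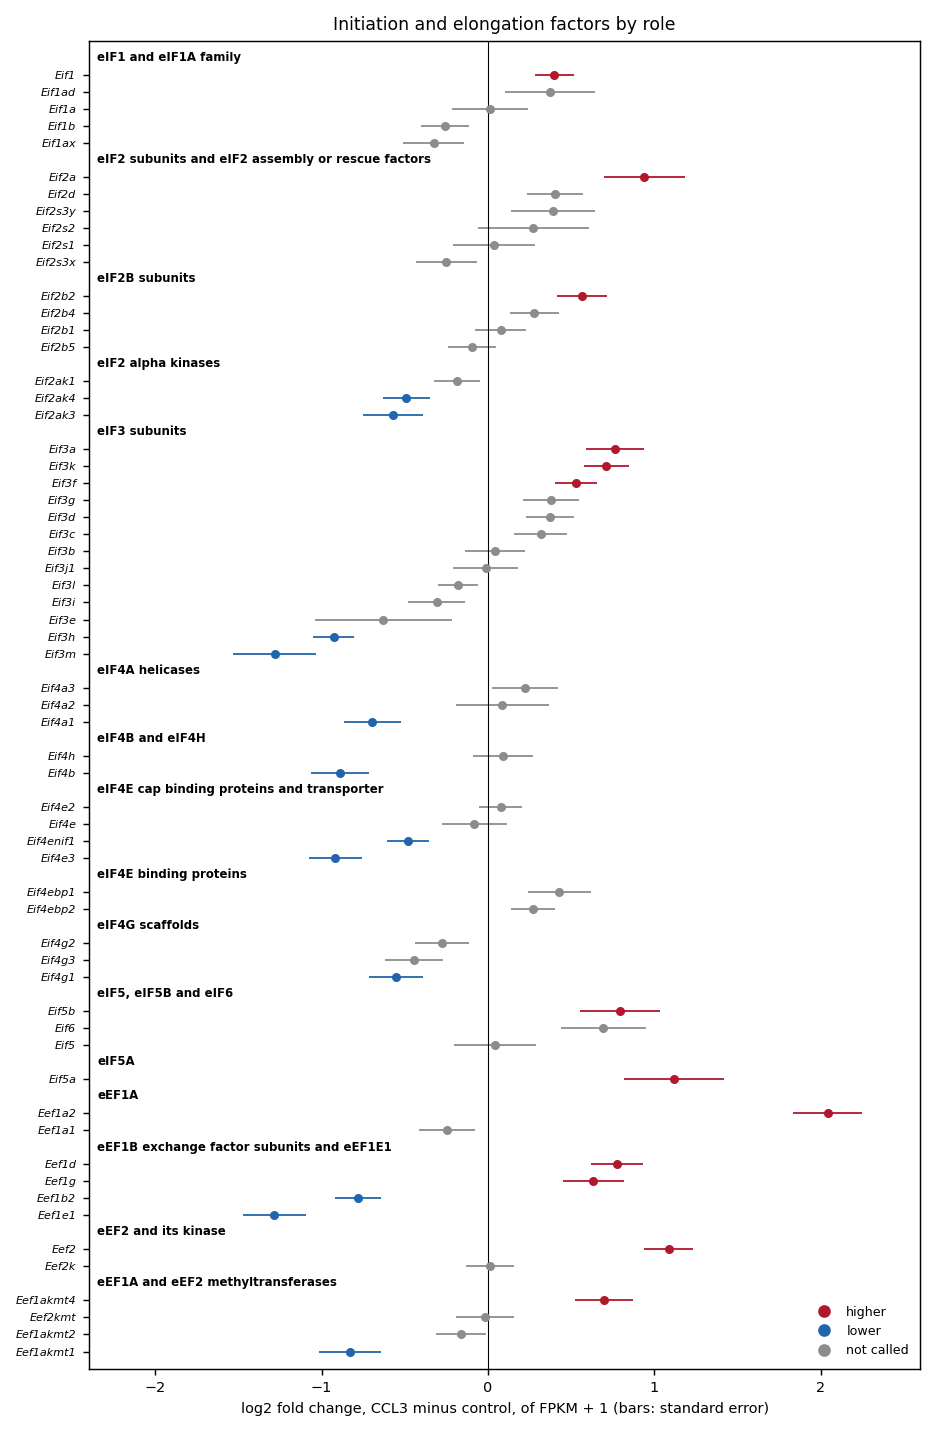
Log2 fold change of FPKM + 1, CCL3 minus control, for the 61 tested factors, grouped by role, with the standard error of the limma fit. Red points were called higher (13), blue points lower (12) and grey points were not called; calls in both directions stand within the eIF3, eEF1B and methyltransferase groups.

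The split between higher and lower calls depended on how libraries were scaled. The divisor behind the deposited FPKM was equal in every library to the median-ratio size factor over the 12980 genes above 0 in all libraries, times the geometric mean of the totals. Recovered totals divided by this divisor were 1.10, 1.05 and 1.20 in the CCL3 libraries, against 0.895, 0.851 and 0.868 in the control libraries. With TPM the median log2 fold change over all genes was -0.48, with 2 factors higher and 27 lower, beside 5.50% and 43.2% of all genes. With plain totals that median was -0.28, with 4 factors higher and 21 lower, beside 8.71% and 33.1% of all genes. The 12 factors called lower were called lower under both scalings. Among those called higher, Eef2 and Eef1a2 were called under both, and Eef1d and Eif3k under plain totals as well. Relative to the median of all genes, all 13 higher and all 12 lower factors stayed on their side under TPM and plain totals. Both scalings multiply a whole library by a constant, so apart from the pseudocount every gene shifts with the median. This position was thus fixed in advance and does not test the calls. Correction for GC content and length gave 13 higher and 9 lower, beside 11.8% and 12.9% of all genes. The median GC content of the gene was 52.7% for factors called higher, 49.7% for those called lower and 50.5% for those not called.

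**Figure D2:**
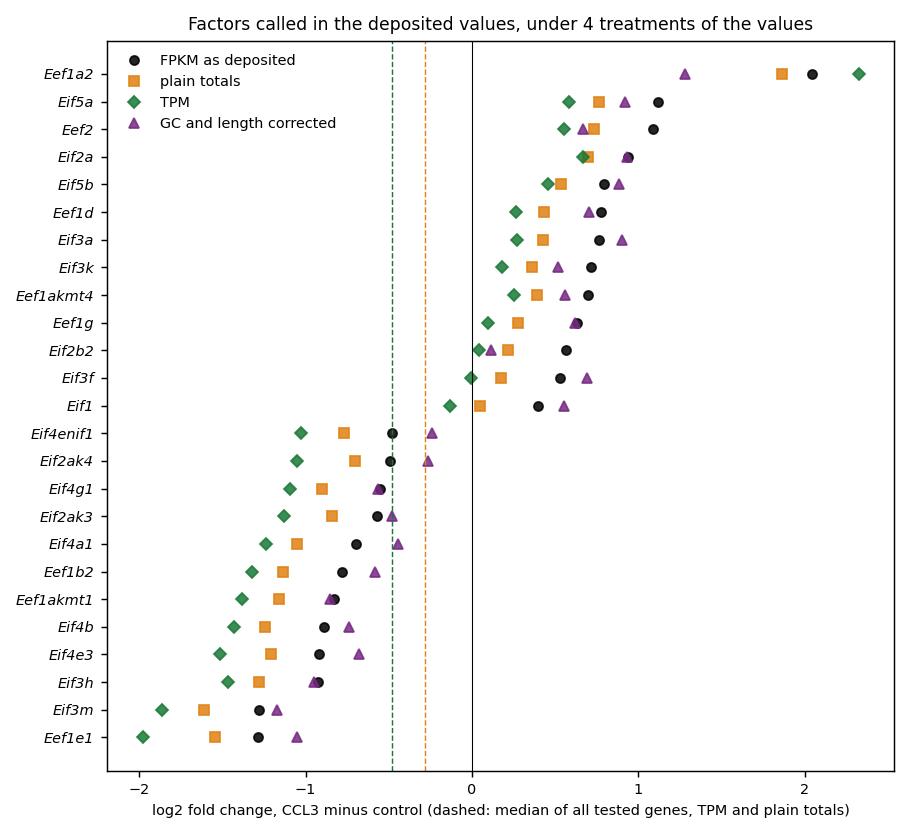
Log2 fold change, CCL3 minus control, of the 25 factors called in the deposited values, under the deposited FPKM, plain totals, TPM and a correction for GC content and length. Dashed lines mark the median of all tested genes, -0.48 for TPM and -0.28 for plain totals; all but Eef1a2, which is highest under TPM, lie further left under TPM and plain totals than in the deposited values.

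Promoter sequence, from RefSeq on GRCm38.p6, the build that mm10 also denotes, was found for 52 of the 68 genes. Each window runs from 250 bases before an annotated start to 50 bases from it on. The E-box CACGTG, the site of MYC and related factors and its own reverse complement, was present in 13 of these 52 genes, 25%, against 8.09% of 27025 genes. Counted by promoter rather than by gene, it was in 22.4% of 67 promoters of the factors and in 7.15% of 32851 promoters. Factors called higher held it in 6 of 11 genes (Eef1akmt4, Eef2, Eif3a, Eif3f, Eif3k and Eif5a), those called lower in 2 of 9 (Eif4a1 and Eif4g1) and those not called in 4 of 30. The 27025 genes include many not tested here. The share with an E-box among the tested genes, or among all genes called higher, was not determined, so the counts by call have no like comparison. A link between the E-box and the calls was not tested. A match is a description of the letters and not a site shown to be bound. The stretches of 30 bases around the E-box, in capitals, are shown for these 8 called factors, for Eif5a at the start with the nearest match and for Eif4g1 at the match before its start; each is read 5′ to 3′ on the gene's strand.
Eef2, chr10:81176576-81176605, plus strand: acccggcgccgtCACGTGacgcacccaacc
Eif3k, chr7:28981915-28981944, minus strand: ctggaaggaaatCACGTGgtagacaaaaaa
Eif3f, chr7:108934335-108934364, plus strand: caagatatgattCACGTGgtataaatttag
Eif3a, chr19:60790654-60790683, minus strand: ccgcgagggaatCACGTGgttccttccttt
Eif5a, chr11:69921443-69921472, minus strand: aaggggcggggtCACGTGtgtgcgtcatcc
Eef1akmt4, chr16:20611497-20611526, plus strand: tgacggaagttcCACGTGtttgtgtggagc
Eif4a1, chr11:69672595-69672624, minus strand: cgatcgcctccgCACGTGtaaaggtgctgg
Eif4g1, chr16:20672661-20672690, plus strand: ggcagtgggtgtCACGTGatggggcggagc

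TGATGNAA, searched on both strands as a match to the site of ATF4, was in 2 of the 52 genes (3.85%) and in 4.51% of all genes. Messenger RNAs of several factors are known in human cells to begin with a C followed by pyrimidines, the 5′ terminal oligopyrimidine (TOP) element through which mTORC1 controls their translation. A C followed by at least 4 C or T, on the gene's strand and within 5 bases of the annotated start, was present in 14 of the 52 genes (26.9%), against 21.2% of all genes, and at the start itself in 2 of them (3.85%), against 3.01%. The annotated start need not be the one used in these cells. For 5 of 9 factors on a list of classical TOP messenger RNAs a window was at hand, and the 30 bases that begin 6 before the annotated start are shown, with every C followed by at least 4 C or T in capitals wherever it lies in the stretch, also where it goes on past the end.
Eef2, chr10:81176625-81176654, plus strand: ccgggcgttgacgtcagcggtCTCTTCCgc
Eif3f, chr7:108934409-108934438, plus strand: ggCTCTCTCTCTTTCTCggcaagatggCTT
Eef1a1, chr9:78481701-78481730, minus strand: gCCCTCTTCCCgagggtgggggagaacggt
Eef1b2, chr1:63176825-63176854, plus strand: agttccgccggaagtagccgaggccttgcg
Eif4b, chr15:102073767-102073796, plus strand: gtcggacgccgcgccaCCCCCTCgcgctgc

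Members of the TOP list went both ways: of its 9 genes, all of them tested, 4 were called higher (Eef2, Eef1d, Eef1g, Eif3f) and 3 lower (Eif3h, Eif4b, Eef1b2), with Eef1a1 and Eif3e not called and a median log2 fold change of -0.25. Over all genes 18.0% were called higher and 14.5% lower. The higher count was 1 without control replicate 2, 2 without control replicate 1 and 1 under TPM and under quantile normalization, where 5 and 4 were lower. Under TPM 5.50% of all genes were higher and 43.2% lower, and under quantile normalization 14.8% and 14.0%. Without control replicate 2 or control replicate 1, 696 and 981 of all 9218 genes were higher. In the stretches above, the runs of Eif3f, which rose, and Eef1a1, which was not called, begin within 5 bases of the annotated start. Those of Eef2 and Eif4b begin further downstream and were not counted, and the stretch of Eef1b2 holds none.

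Eef2 and Eef1a1 were the most abundant factor messenger RNAs per length, together 69.3%, 72.2% and 67.1% of the summed FPKM of all 68 genes in the CCL3 libraries and 67.7%, 66.8% and 60.8% in the control libraries. Eef2, which encodes the translocase eEF2 (chromosome 10, 81176631 to 81182498), had 3849, 4236 and 4741 FPKM with CCL3, against 2029, 2015 and 1968 FPKM in control. The control libraries were within a few percent of one another and every CCL3 library lay far above them, a log2 fold change of 1.09 ± 0.15 (SE; limma adjusted p = 0.00332). It was called in all 6 fits without 1 library, and its log2 fold change was 0.55 under TPM and 0.73 under plain totals, both called. Correction for GC content and length gave 0.67, also called. Quantile normalization, which ties the ends of the distribution together, gave 0.27 without a call (limma adjusted p = 0.143). Eef2k, encoding the calcium-dependent kinase that inhibits eEF2, averaged 3.71 ± 0.58 FPKM with CCL3 and 3.65 ± 0.27 FPKM in control (SD, n = 3 each), a log2 difference of 0.01 ± 0.14 (SE) without a call.

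Eef1a1, encoding the main carrier of aminoacyl transfer RNA, did not follow Eef2. Its levels were 1917, 2145 and 1795 FPKM with CCL3, against 2626, 2416 and 1947 FPKM in control, and the groups overlapped (log2 fold change -0.25 ± 0.17 SE, limma adjusted p = 0.28). Eef1a1 was called lower under TPM (log2 fold change -0.78), plain totals (-0.60) and quantile normalization (-0.90). A ratio of 2 genes in 1 library does not depend on the divisor. Eef2 over Eef1a1 was 2.01, 1.98 and 2.64 with CCL3, against 0.773, 0.834 and 1.01 in control, so Eef2 was the more abundant messenger RNA per length in every CCL3 library and about level with or below Eef1a1 in every control library. In all 11 pairs were compared in this way, chosen after their values were seen. In 10 of them the groups were separate, and in Eif5a over Eif5 they overlapped, at 151.1, 70.5 and 187.6 with CCL3 and 41.4, 46.7 and 110 in control (two-sided exact permutation p = 0.2). With 3 libraries a group the smallest two-sided p of an exact permutation test is 0.1, which Eef2 over Eef1a1 reached.

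The largest change in size among the tested factors was that of Eef1a2, the form of eEF1A known from muscle and neurons, at a very low level. It reached the level tested only through the CCL3 libraries, with a mean of 4.68 FPKM there and 0.342 FPKM in control. It had 3.40, 4.05 and 6.58 FPKM with CCL3, from 115, 145 and 199 fragments, against 0.416, 0.319 and 0.292 FPKM in control, from 18, 14 and 13 fragments. The groups were far apart, with a log2 fold change of 2.04 ± 0.21 (SE, limma adjusted p = 0.0031) on a scale where the pseudocount of 1 understates it. With a pseudocount of 0.1 it was also called higher. Correction for GC content and length lowered the log2 fold change to 1.28, still called. Even so Eef1a2 stood at 0.00178, 0.00189 and 0.00367 of Eef1a1 in the CCL3 libraries, against 0.000158, 0.000132 and 0.00015 in control. Of 6 muscle and neuron markers, Myh1, Snap25 and Syt1 were at 0 in all libraries, Acta1 and Ckm did not exceed 0.0758 FPKM in any, and Tubb3 made up most of the sum, with 1.09, 0.187 and 1.48 FPKM with CCL3 against 0.129, 0.305 and 0.226 FPKM in control. The summed level was 1.09, 0.283 and 1.52 FPKM with CCL3, against 0.129, 0.322 and 0.286 FPKM in control; its part in the result was not tested.

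**Figure D3:**
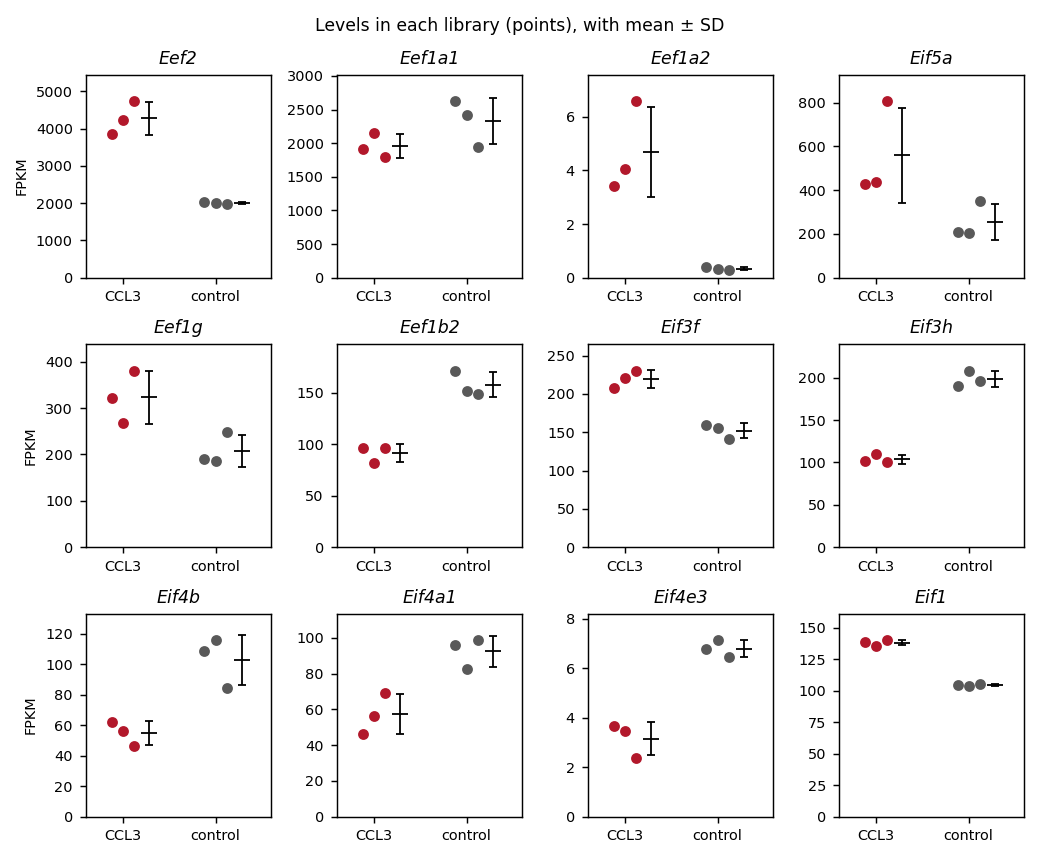
FPKM of 12 factors in each library, CCL3 (red) and control (grey), with the mean and SD beside the points; each axis starts at 0. Eef2, Eef1a2, Eif5a, Eef1g, Eif3f and Eif1 lie higher in the CCL3 libraries, Eef1b2, Eif3h, Eif4b, Eif4a1 and Eif4e3 lie lower, and the groups of Eef1a1 overlap.

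The subunits of the eEF1B exchange complex were called in opposite directions. Eef1g, its structural gamma subunit, had 322.5, 266.9 and 381 FPKM with CCL3, against 190.4, 185.1 and 248.3 FPKM in control (log2 fold change 0.63 ± 0.18 SE, limma adjusted p = 0.0335). Eef1d, the delta subunit with exchange activity, rose as well, with 31.3, 30.3 and 39.9 FPKM in the CCL3 libraries and 19.4, 17.2 and 21.3 FPKM in the control libraries (0.77 ± 0.16, limma adjusted p = 0.00963). Eef1b2, the alpha subunit and also an exchange factor, fell instead, to 96.6, 81.4 and 96.0 FPKM with CCL3, against 171.4, 152 and 149.1 FPKM in control (-0.78 ± 0.14, limma adjusted p = 0.00613). The groups did not overlap for any of these subunits. Eef1g over Eef1b2 was 3.34, 3.28 and 3.97 in the CCL3 libraries, against 1.11, 1.22 and 1.67 in the control libraries. Eef1g was not called without CCL3 replicate 1 or 3 or control replicate 1 or 2, with log2 fold changes of 0.51 to 0.77 over the fits that left out 1 library. For Eef1d the call was lost without control replicate 2 (0.65 to 0.85), and under TPM neither Eef1g (0.10) nor Eef1d (0.26) was called.

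Eef1e1 belongs to the factors by name, and its protein is known as a scaffold component of the multi-aminoacyl-tRNA synthetase complex. It had 2.06, 1.07 and 1.36 FPKM with CCL3, against 4.96, 4.19 and 5.98 FPKM in control, every control library lying above every CCL3 library (log2 fold change -1.28 ± 0.19 SE, limma adjusted p = 0.00423). Of 5 methyltransferases that modify eEF1A or eEF2, 4 were tested, 1 rose and 1 fell. Eef1akmt4 had 8.02, 7.83 and 10.2 FPKM with CCL3, against 3.97, 4.98 and 6.00 FPKM in control (0.70 ± 0.17, limma adjusted p = 0.0194). Its call was lost without CCL3 replicate 3, control replicate 1 or control replicate 2 (0.57 to 0.82). Eef1akmt1 had 9.64, 9.90 and 9.32 FPKM with CCL3, against 14.0, 17.2 and 23.6 FPKM in control (-0.83 ± 0.19, limma adjusted p = 0.0139), and lost its call without control replicate 2 (-0.99 to -0.64). Eef2kmt and Eef1akmt2 were not called, with log2 fold changes of -0.02 and -0.16.

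Eif5a rose, as did the genes of the enzymes that activate its protein. eIF5A helps the ribosome past stretches such as polyproline and carries hypusine, a modified lysine made by deoxyhypusine synthase and deoxyhypusine hydroxylase, encoded by Dhps and Dohh. Eif5a had 429.1, 439.4 and 807.7 FPKM with CCL3, against 207.5, 204.1 and 349.4 FPKM in control (log2 fold change 1.12 ± 0.30 SE, limma adjusted p = 0.0257). Replicate 3 was the highest library of each group, and the proliferation markers had their highest sum in the same libraries, 657 FPKM with CCL3 and 468 FPKM in control; their part in the result was not tested. Eif5a was not called without CCL3 replicate 3, control replicate 1 or control replicate 2 (0.82 to 1.37), nor under TPM (0.58, limma adjusted p = 0.0761). Dohh had 27.7, 29.6 and 46.3 FPKM with CCL3, against 12.8, 10.2 and 16.4 FPKM in control (1.32 ± 0.24, limma adjusted p = 0.0065). Dhps had 20.1, 15.6 and 24.7 FPKM with CCL3, against 10.5, 11.4 and 14.7 FPKM in control (0.67 ± 0.20, limma adjusted p = 0.0355). Correction for GC content and length ended the calls of Dohh (0.50) and Dhps (0.44), and TPM that of Dhps (0.17). Dohh was called in all 6 fits without 1 library, and Dhps lost its call without CCL3 replicate 1 or 3 or control replicate 1 or 2 (0.51 to 0.83). Among the enzymes that build diphthamide, the modified histidine of eEF2, 5 were tested: Dph3 and Dnajc24 fell, with log2 fold changes of -0.90 ± 0.15 and -0.89 ± 0.16 (limma adjusted p = 0.00592 and 0.00604), and Dph1, Dph2 and Dph7 were not called. Over the 7 tested hypusine and diphthamide genes the median log2 fold change was 0.08. Eif5a2 averaged 0.535 FPKM with CCL3 and 0.52 FPKM in control and was not tested.

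Subunits of eIF3, the scaffold that ties the small subunit to the other initiation factors, were the largest group, 14 genes of which 13 were tested, 3 higher, 2 lower and 8 not called. Their summed level was 773, 795 and 875 FPKM with CCL3, against 765, 763 and 797 FPKM in control, and these ranges overlapped. Eif3f rose: it had 207.1, 221.2 and 230.4 FPKM with CCL3, against 159.4, 155.5 and 141 FPKM in control (log2 fold change 0.53 ± 0.13 SE, limma adjusted p = 0.0176). Eif3h, whose protein binds eIF3f and eIF3m within the mammalian complex, fell to 101.4, 109.8 and 100.1 FPKM with CCL3, against 190.1, 208.3 and 195.8 FPKM in control (-0.93 ± 0.12, limma adjusted p = 0.00322). In control libraries Eif3h was thus the more abundant of the pair per length and in CCL3 libraries Eif3f was, with Eif3f over Eif3h at 2.04, 2.02 and 2.30 in CCL3 libraries and 0.839, 0.747 and 0.72 in control libraries. Eif3m, the third of these partners, had 5.24, 10.3 and 7.45 FPKM with CCL3, against 23.2, 21.6 and 14.8 FPKM in control (-1.28 ± 0.25, limma adjusted p = 0.00861). Control replicate 3 was the control library nearest to the CCL3 ones for Eif3m.

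Eif3k and Eif3a were the other eIF3 subunits called higher. Eif3k had 135, 126.7 and 152.7 FPKM with CCL3, against 79.8, 79.9 and 91.9 FPKM in control (log2 fold change 0.71 ± 0.14 SE, limma adjusted p = 0.00824). Eif3a, the largest subunit, had 14.9, 22.8 and 20.1 FPKM with CCL3, against 11.7, 10.9 and 9.87 FPKM in control (0.76 ± 0.17, limma adjusted p = 0.0144). Both lost their call without control replicate 2 (Eif3k 0.64 to 0.78, Eif3a 0.64 to 0.92), and Eif3f lost it without control replicate 1 or 2 (0.48 to 0.57). Under TPM none of these 3 was called and Eif3f was at -0.0059, whereas Eif3h and Eif3m were called lower at -1.47 and -1.86. With correction for GC content and length all 5 were called in the same direction. Eif3e varied most within its groups, with 2.95, 9.82 and 10.51 FPKM in CCL3 libraries and 14.4, 12.4 and 7.77 FPKM in control libraries, and was not called. The other uncalled subunits (Eif3b, Eif3c, Eif3d, Eif3g, Eif3i, Eif3j1 and Eif3l) had log2 fold changes from -0.31 to 0.38, and Eif3j2 averaged 0.878 FPKM with CCL3 and 0.568 FPKM in control and was not tested.

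**Figure D4:**
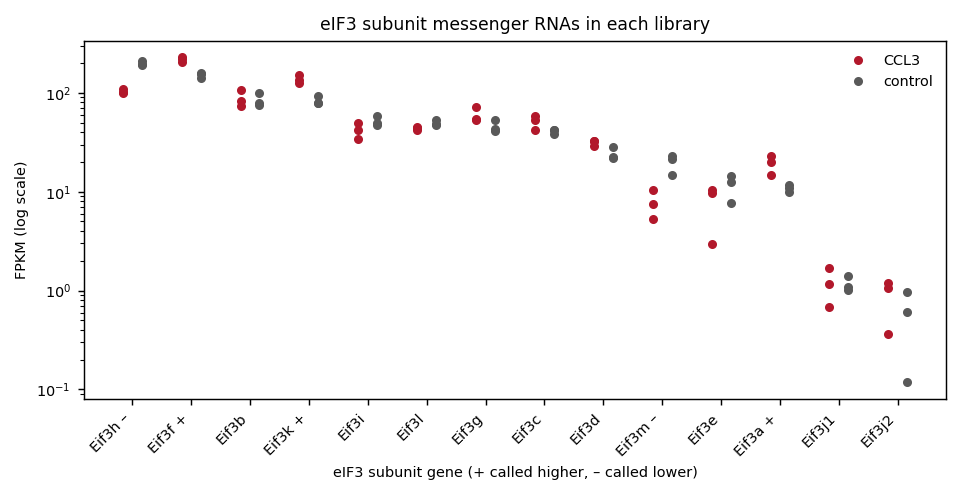
FPKM of the 14 eIF3 subunit genes in each library on a log axis, CCL3 (red) left of control (grey), ordered by the mean of the control libraries. Eif3f, Eif3k and Eif3a were called higher (+) and Eif3h and Eif3m lower (–); Eif3h led the order in control libraries and Eif3f lay above it in CCL3 libraries.

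Among the genes of cap recognition and unwinding, the calls were falls. The eIF4A, eIF4B and eIF4H, eIF4E and eIF4G groups together gave 5 lower and 0 higher of 12 tested, beside 14.5% and 18.0% of all genes. The 5 were Eif4a1, Eif4b, Eif4g1, the atypical Eif4e3 and the transporter gene Eif4enif1. These groups were pooled with their values known. The pool leaves out the eIF4E binding proteins, of which Eif4ebp1 and Eif4ebp2 had log2 fold changes of 0.43 and 0.27 without a call. The lower count was 2 without control replicate 1 or 2 and 3 without CCL3 replicate 3. It was 3 with correction for GC content and length and 8 under TPM, with 0 higher in each of these fits. Under TPM 43.2% of all genes were lower and 5.50% higher, and with that correction 12.9% and 11.8%. Without control replicate 1, control replicate 2 or CCL3 replicate 3, 676, 456 and 812 of all 9218 genes were lower. Eif4a1, the main helicase of the cap complex, had 46.5, 56.3 and 69.0 FPKM with CCL3, against 96.2, 82.7 and 98.7 FPKM in control (log2 fold change -0.70 ± 0.17 SE, limma adjusted p = 0.0188). Eif4b, which stimulates that helicase, had 61.9, 56.2 and 46.6 FPKM with CCL3, against 108.5, 115.8 and 84.3 FPKM in control (-0.89 ± 0.17, limma adjusted p = 0.00839). Eif4g1, the scaffold between cap and ribosome, had 41.4, 27.8 and 33.7 FPKM with CCL3, against 49.4, 49.3 and 52.0 FPKM in control (-0.55 ± 0.16, limma adjusted p = 0.0346). The groups were separate for all of these, but the Eif4g1 call held only without CCL3 replicate 1 among the 6 fits that left out 1 library (-0.70 to -0.42), and Eif4a1 lost its call without control replicate 1 or 2 (-0.84 to -0.56). Correction for GC content and length left Eif4a1 at -0.45 without a call (limma adjusted p = 0.0982).

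The deposited table also lists 17 pseudogenes described as copies of initiation or elongation factors, of which 1 averaged at least 1 FPKM. This was Eif4a-ps4, with 31.0, 35.5 and 43.6 FPKM in CCL3 libraries and 62.5, 56.4 and 63.4 FPKM in control libraries (log2 fold change -0.72 ± 0.16 SE, limma adjusted p = 0.0118), next to those of Eif4a1. The counting of fragments that match both genes was not given in the sources used here, so the split between Eif4a1 and Eif4a-ps4 is uncertain. The other helicases were not called. Eif4a3, a core protein of the exon junction complex, averaged 63.0 ± 12.2 FPKM with CCL3 and 54.1 ± 11.7 FPKM in control (SD, n = 3 each), and Eif4a2 averaged 4.65 ± 1.19 FPKM with CCL3 and 4.48 ± 1.92 FPKM in control. Eif4a3 over Eif4a1 was 1.31, 0.926 and 1.10 in CCL3 libraries, against 0.479, 0.59 and 0.683 in control libraries. Eif4h, a smaller relative of Eif4b, was not called either (0.09 ± 0.18).

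Eif4e, which encodes the cap-binding protein itself, was low and did not differ beyond its spread: 2.86, 3.10 and 4.96 FPKM with CCL3, against 3.35, 3.83 and 4.33 FPKM in control (log2 fold change -0.08 ± 0.19 SE). Its atypical relative Eif4e3 fell to 3.65, 3.45 and 2.39 FPKM with CCL3, against 6.77, 7.14 and 6.46 FPKM in control (-0.92 ± 0.16, limma adjusted p = 0.00607). In control libraries Eif4e3 was thus above Eif4e, and in CCL3 libraries their levels overlapped. Eif4enif1, which carries eIF4E into the nucleus and into P-bodies, had 3.64, 3.79 and 3.38 FPKM with CCL3, against 5.24, 5.68 and 5.34 FPKM in control (-0.48 ± 0.13, limma adjusted p = 0.0234). Its call was lost without CCL3 replicate 3, control replicate 1 or control replicate 2 (-0.51 to -0.44) and with correction for GC content and length (-0.24). Eif4e2, a repressive cap binder, was at 0.08 ± 0.13 without a call, and Eif4e1b was at 0 in all 6 libraries.

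The inhibitors of eIF4E were at levels well above Eif4e and were not called in the deposited values. Eif4ebp1 had 50.3, 47.5 and 64.9 FPKM with CCL3, against 33.4, 37.7 and 49.5 FPKM in control (log2 fold change 0.43 ± 0.19 SE, limma adjusted p = 0.113), the groups overlapping through control replicate 3. It was called higher without that library (0.58, limma adjusted p = 0.0384) and with correction for GC content and length (0.56, limma adjusted p = 0.0427), and stood at -0.099 under TPM. Eif4ebp2 had 56.2, 47.6 and 50.5 FPKM with CCL3, against 40.9, 46.4 and 40.1 FPKM in control, with groups that were separate by a narrow margin (0.27 ± 0.13, limma adjusted p = 0.148). Set against the scaffold in the same library, Eif4ebp1 over Eif4g1 was 1.21, 1.71 and 1.92 in CCL3 libraries and 0.677, 0.765 and 0.951 in control libraries. Eif4g2, an eIF4G relative that does not bind eIF4E, and Eif4g3 were not called (-0.28 ± 0.16 and -0.44 ± 0.18). Eif4ebp3 was read in 1 control library and was not tested.

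**Figure D5:**
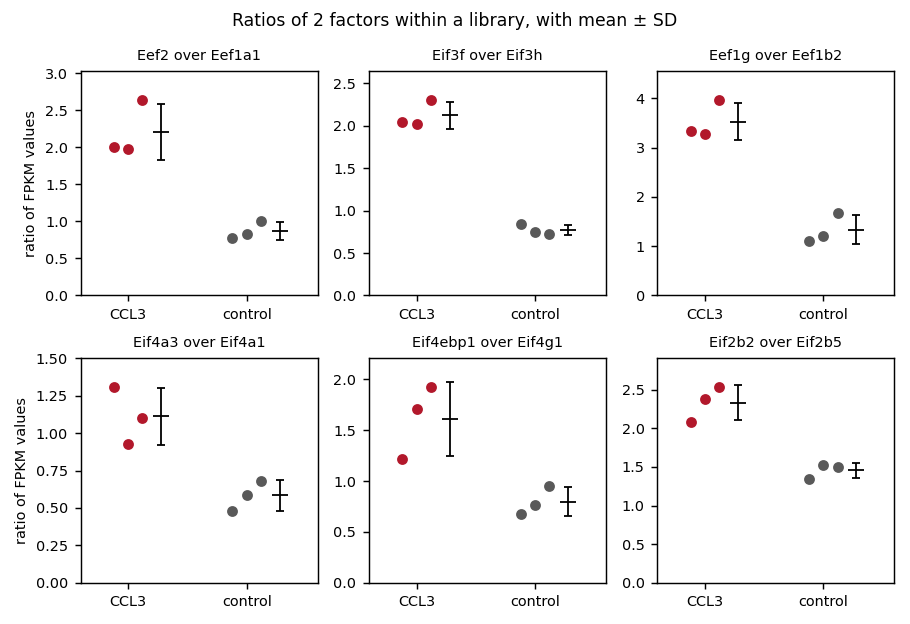
Ratio of the FPKM of 2 factors within each library, CCL3 (red) and control (grey), with mean and SD; each axis starts at 0. For all 6 pairs shown, which were chosen after their values were seen, the CCL3 libraries lie above the control libraries; of 11 pairs computed, Eif5a over Eif5, not shown, overlapped between groups. Eef2 over Eef1a1 ran from 1.98 to 2.64 with CCL3 and from 0.773 to 1.01 in control.

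For eIF2, the GTPase that delivers the initiator transfer RNA, no subunit was called. Eif2s1, the alpha subunit that stress kinases phosphorylate, had 2.19, 3.35 and 5.56 FPKM with CCL3, against 3.56, 3.32 and 3.30 FPKM in control, with the control libraries inside the CCL3 range (log2 fold change 0.04 ± 0.25 SE). Eif2s2, Eif2s3x and Eif2s3y had log2 fold changes of 0.27, -0.25 and 0.39. Eif2a is a separate gene despite its name, and its protein is a non-canonical carrier of initiator transfer RNA. It had 2.47, 6.03 and 3.74 FPKM with CCL3, against 1.72, 1.41 and 1.51 FPKM in control, every CCL3 library lying above every control library with a wide spread (0.94 ± 0.24, limma adjusted p = 0.0228). Its call was lost without CCL3 replicate 3 or control replicate 2 (0.67 to 1.18). Eif2d, a factor of non-canonical initiation and ribosome recycling, was separate between the groups and not called (0.40 ± 0.17, limma adjusted p = 0.0983).

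Of the subunits of eIF2B, which reloads eIF2 with GTP, Eif2b2 was called. It had 56.0, 51.5 and 59.3 FPKM with CCL3, against 32.2, 36.7 and 43.4 FPKM in control (log2 fold change 0.57 ± 0.15 SE, limma adjusted p = 0.0239). Eif2b5, the catalytic subunit, had 26.9, 21.6 and 23.4 FPKM with CCL3, against 24.01, 24.1 and 29.0 FPKM in control and was not called. Eif2b2 over Eif2b5 was 2.08, 2.38 and 2.53 in CCL3 libraries, against 1.34, 1.52 and 1.497 in control libraries. The Eif2b2 call was lost without CCL3 replicate 1 or 3 or control replicate 1 or 2 (0.47 to 0.67) and with correction for GC content and length (0.11, limma adjusted p = 0.416). Eif2b4 and Eif2b1 were at 0.28 and 0.08 without a call, and Eif2b3 averaged 0.67 FPKM with CCL3 and 0.616 FPKM in control and was not tested.

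Of the 4 kinases that phosphorylate eIF2 alpha under stress, 2 fell, 1 was not called and 1 was not tested. Eif2ak3, which encodes the endoplasmic reticulum stress sensor PERK, had 2.90, 2.88 and 1.95 FPKM with CCL3, against 4.998, 4.495 and 3.44 FPKM in control (log2 fold change -0.57 ± 0.18 SE, limma adjusted p = 0.0422). Eif2ak4, encoding the amino acid sensor GCN2, had 1.13, 1.02 and 1.05 FPKM with CCL3, against 2.21, 1.96 and 1.57 FPKM in control (-0.49 ± 0.14, limma adjusted p = 0.0338). The groups were separate for both, yet each was called in 1 of the 6 fits that left out 1 library, that without control replicate 3 (Eif2ak3 -0.70 to -0.44, Eif2ak4 -0.58 to -0.42). Correction for GC content and length ended both calls (-0.48 and -0.26). Eif2ak1, the heme-regulated kinase, was at -0.19 ± 0.14 and not called. Eif2ak2, the double-stranded RNA sensor PKR, had 0.893, 1.37 and 1.17 FPKM with CCL3, against 0.678, 0.846 and 0.961 FPKM in control, and was below the level tested.

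Phosphorylation of eIF2 alpha starts the integrated stress response. Of 9 tested genes of this response, 3 were called lower and 0 higher, with a median log2 fold change of -0.61, beside 14.5% of all genes called lower and a median of 0.0066. Chac1, among these 9, averaged 0.531 FPKM with CCL3 and 1.735 FPKM in control. It reached the level tested only through the control libraries, which bears on this median. Atf4, the transcription factor translated when eIF2 alpha is phosphorylated, had 26.7, 25.1 and 31.2 FPKM with CCL3, against 48.1, 47.8 and 71.5 FPKM in control (-0.97 ± 0.19, limma adjusted p = 0.00842). Ppp1r15b, a subunit of the phosphatase that reverses this mark, had 7.79, 5.59 and 4.49 FPKM with CCL3, against 12.3, 13.1 and 12.1 FPKM in control (-0.98 ± 0.18, limma adjusted p = 0.00772). Ddit3, the stress factor CHOP, had 2.88, 3.16 and 2.78 FPKM with CCL3, against 5.45, 5.22 and 4.45 FPKM in control (-0.61 ± 0.14, limma adjusted p = 0.013). Asns, an ATF4 target, was not called, with 1.94, 2.64 and 6.83 FPKM in CCL3 libraries and 6.44, 5.99 and 18.1 FPKM in control libraries. The other uncalled genes were Chac1, Trib3, Ppp1r15a, Sesn2 and Impact, with log2 fold changes of -0.64, -0.28, -0.08, 0.07 and 0.10. Over the other settings of the processing 3 to 5 genes of this list were called lower and 0 higher, and without 1 library 2 to 4 lower and 0 higher. Under TPM 5 genes of the list were lower, beside 43.2% of all genes. The median was -0.27 without control replicate 3, the control library with the highest Asns and Atf4. Ddit3 lost its call without control replicate 1 or 2 (-0.69 to -0.56), and Atf4 and Ppp1r15b were called in all 6 fits.

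Eif1, which enforces start codon choice, was the called factor with the smallest change. It had 138.5, 135.9 and 140.2 FPKM with CCL3, against 104.2, 103.9 and 105.6 FPKM in control, groups with little spread and a clear gap (log2 fold change 0.40 ± 0.12 SE, limma adjusted p = 0.0343). It was nonetheless called in 0 of the 6 fits that left out 1 library (0.39 to 0.41), and its sign turned under TPM (-0.13) and quantile normalization (-0.04). Its paralog Eif1b had 38.0, 31.7 and 40.4 FPKM with CCL3, against 41.5, 42.5 and 47.9 FPKM in control, separate and not called (-0.26 ± 0.14). Eif1a, Eif1ax and Eif1ad were not called, with log2 fold changes from -0.33 to 0.37.

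Of the late initiation factors, Eif5b rose. The GTPase it encodes joins the large subunit, and its levels were 2.54, 5.96 and 4.89 FPKM with CCL3, against 2.13, 2.03 and 1.93 FPKM in control (log2 fold change 0.80 ± 0.24 SE, limma adjusted p = 0.038). CCL3 replicate 1 was close to control, and without it the change was 1.08, the one fit without a library in which Eif5b was called (0.59 to 1.08). Eif5, which triggers GTP hydrolysis by eIF2, was at 0.04 ± 0.25 and not called. Eif6, which keeps the subunits apart, had 85.3, 72.6 and 132.4 FPKM with CCL3, against 50.5, 49.6 and 76.0 FPKM in control, overlapping and not called (0.69 ± 0.26, limma adjusted p = 0.0701). As for Eif5a, replicate 3 was the highest library of each group for Eif6, and so it was for the proliferation markers; their part in the result was not tested.

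Regulators of the cap complex outside the factors also went both ways. Of 13 tested genes of mTORC1 and its cap-complex branch, 3 rose and 2 fell, with a median log2 fold change of -0.0014, beside 18.0% and 14.5% of all genes. Mknk2, a kinase that phosphorylates eIF4E, had 211.7, 197 and 243.8 FPKM with CCL3, against 107.2, 107.5 and 107 FPKM in control (1.01 ± 0.13, limma adjusted p = 0.00315). Its relative Mknk1 fell to 20.1, 17.3 and 13.2 FPKM with CCL3, against 25.1, 29.3 and 23.2 FPKM in control (-0.60 ± 0.18, limma adjusted p = 0.0351). Akt1s1, which encodes the mTORC1 inhibitor PRAS40, had 58.4, 68.5 and 71.7 FPKM with CCL3, against 36.8, 31.5 and 33.7 FPKM in control (0.94 ± 0.14, limma adjusted p = 0.00416). The remaining calls were Pdcd4, an inhibitor of eIF4A, higher by 0.51 ± 0.15 (limma adjusted p = 0.0341), and Tsc1, lower with a log2 fold change of -0.50 ± 0.15 (limma adjusted p = 0.0363). Mknk2 and Akt1s1 were called in all 6 fits without 1 library and Pdcd4 in 0 of them (0.40 to 0.57). Mknk1 (-0.73 to -0.45) and Tsc1 (-0.59 to -0.44) lost their calls without CCL3 replicate 2 or 3 or control replicate 1 or 2. Correction for GC content and length ended the calls of Akt1s1 (0.19) and Tsc1 (-0.28), and TPM that of Pdcd4 (0.26). Mtor and Rptor, the kinase and its adaptor, were not called (-0.28 and -0.0014).

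Termination, poly(A) binding and mitochondrial factors had median log2 fold changes of 0.17, -0.38 and 0.03, and the share called over all genes was 18.0% higher and 14.5% lower. Of 7 tested genes of termination and rescue, Hbs1l, which frees stalled ribosomes, was called lower, with 1.42, 1.39 and 1.34 FPKM in CCL3 libraries and 2.28, 2.54 and 2.48 FPKM in control libraries (log2 fold change -0.53 ± 0.13 SE, limma adjusted p = 0.0176). Of 6 poly(A) binding proteins and partners, Paip1, which links poly(A) binding protein to eIF4A and eIF3, was called lower (-0.72 ± 0.18, limma adjusted p = 0.0196), and Pabpc1 was at -0.0095. Paip2b, not called at 0.9855 FPKM with CCL3 and 1.55 FPKM in control, reached the level tested only through the control libraries. Of 6 tested mitochondrial translation factors, Tufm, the mitochondrial counterpart of eEF1A, had 79.9, 71.2 and 96.9 FPKM with CCL3, against 41.6, 43.3 and 62.6 FPKM in control (0.75 ± 0.20, limma adjusted p = 0.0228). Mtif3, a mitochondrial initiation factor, fell (-0.45 ± 0.14, limma adjusted p = 0.0464). Leaving out control replicate 1 or 2 ended each of these calls. Without CCL3 replicate 3 those of Hbs1l, Tufm and Mtif3 were lost, without CCL3 replicate 1 those of Paip1 and Tufm, and without CCL3 replicate 2 or control replicate 3 that of Mtif3. The log2 fold changes over these fits were -0.56 to -0.50 for Hbs1l, -0.89 to -0.61 for Paip1, 0.63 to 0.94 for Tufm and -0.52 to -0.38 for Mtif3. Correction for GC content and length ended the calls of Hbs1l (-0.32), Tufm (0.38) and Mtif3 (-0.40), and TPM that of Tufm (0.23).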

How the data were processed

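The authors deposited 1 table of FPKM, with 1 column per library, gene lengths and positions, per the file headers; per the submitters' processing notes the genome was mm10. Not given in the sources used here were the aligner, counting tool, strand use and treatment of multiply matching reads, so overlapping genes and close copies are uncertain. Multiplied by gene length, 100% of FPKM values came out as whole numbers of a library's step (tolerance 0.02), which gave fragments. Replicates differed by a chi-square per degree of freedom of 19.6 to 89.7, so none were merged.

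Genes averaging 1 FPKM or more were compared with limma 3.58.1 in R 4.3.3 on log2(FPKM + 1), with a variance trend, two-sided tests and Benjamini-Hochberg adjustment over 9218 genes (threshold 0.05). Fold changes are on that scale, CCL3 minus control, and understate low genes. In simulated data for this comparison over 9223 genes, 34.3%, 89.2% and 100% of genes changed 1.5-fold, 2-fold and 4-fold were recovered, and 6.54% of calls were false. The simulation changed only a small set of genes, gave every gene the same relative spread and drew the libraries independently. These settings differ from the data, so 6.54% is not the error rate of the calls reported here. Members, lists and tests were chosen with earlier results of these data known. Named members were up to 6 called per role by size of change, the most abundant to make up 2, and a fixed set of central factors; up to 3 called genes were named per other list. Eif3e, Eif4e2, Pdcd4, Tsc1, Dhps, Asns, Mtor, Rptor, Pabpc1, Eif4a-ps4 and the uncalled members given by value fall outside this rule and were chosen after their values were seen. So do Bub1, Paip2b and the other uncalled genes of the integrated stress response list. The alternatives were other pseudocounts, filters, scalings, GC and length correction, protein-coding genes alone, a replicate block and leaving out each library.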

Additional observations from a re-analysis of the deposited data

How the results depend on the processing

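A pseudocount of 0.1, median-ratio scaling (the same divisor up to a constant) and protein-coding genes alone kept all 25 factor calls. Without a filter on low values 8 factors were called higher and 8 lower, and with quantile normalization 6 and 14. Each kept 16 of the 25 calls. Without the filter these were 11.94% and 11.94% of the factors tested, beside 5.45% higher and 4.39% lower of 20404 genes. With quantile normalization they were 9.84% and 22.95% of the factors, beside 14.8% higher and 14.0% lower of all genes. TPM scaling gave 507 genes higher and 3986 lower over all genes, 2 and 27 among the factors, and medians of -0.48 for all genes and -0.44 for the factors. Plain totals gave 803 and 3047, 4 and 21, and medians of -0.28 and -0.25. GC and length correction gave 1087 genes higher and kept 20 of the 25 factor calls. Leaving out each library in turn gave 696 to 1873 genes higher and 456 to 1293 lower, 2 to 15 factors higher and 6 to 12 lower, and a median of the factors of 0.0075 to 0.11. Signs turned as follows, on the log2 scale; the cause was not tested. With TPM these were Eif3f (-0.0059), Eif1 (-0.13), Eif4h (-0.44), Eif4a3 (-0.31), Eif4ebp1 (-0.099), Eif4ebp2 (-0.26), Eif2d (-0.052), Eef2k (-0.47) and Eif2s1 (-0.45). With plain totals they were Eif4h (-0.26), Eif4a3 (-0.13), Eif4ebp2 (-0.079), Eef2k (-0.27) and Eif2s1 (-0.24). With quantile normalization they were Eif1 (-0.042), Eif4h (-0.26), Eif4a3 (-0.12), Eif4ebp2 (-0.021) and Eif4e (0.025), and with GC and length correction Eif4e (0.016). Without 1 library Eif4e ranged from -0.28 to 0.037, Eef2k from -0.088 to 0.064, Eif2s1 from -0.24 to 0.28 and Eif4h from -0.0092 to 0.24; Eif1 and Eif3f were the factors called in the deposited values whose sign turned under any setting. Counts over the other lists moved under the settings without leave-outs to 0 to 3 lower for termination, 0 to 5 lower for poly(A) binding, 2 to 3 higher and 0 to 6 lower for mTORC1 (2 higher and 0 to 3 lower without 1 library), 1 to 3 higher for dendritic cell markers, 0 to 2 higher and 2 to 3 lower for hypusine and diphthamide, and 0 to 1 higher and 0 to 2 lower for mitochondrial factors. Allowing no tolerance around the annotated start left a pyrimidine run in 2 of the 52 factors.

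The labels do not say whether replicate numbers pair the samples. Libraries with the same number correlated at -0.0628, 0.387 and 0.503 in their deviations from the group means, the last being the highest of all such correlations. Replicate 2 of CCL3 correlated better with control replicate 1 (0.413). Deviations within a group of 3 depend on one another, so these correlations cannot decide whether the libraries were paired. With the replicate block 2205 genes were higher and 1692 lower, and 19 factors higher and 13 lower, with all 25 calls kept. Depth limits the lowest factors: 7 were under the level tested, and the lowest value of a tested factor rested on 13 fragments.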

Other observations

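Factors that lie close together on a chromosome were called in opposite directions. On chromosome 11 (mm10), Eif4a1 (69666936 to 69672423), which fell, and Eif5a (69916714 to 69921958), which rose, are separated by 244290 bases. On chromosome 16, Eef1akmt4 (20611593 to 20619011), which rose, and Eif4g1 (20668313 to 20692884), which fell, are separated by 49301 bases, and Eif2b5, which was not called, lies 102269 bases before Eef1akmt4.

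Of the tested factors, 11 overlap another tested gene in the deposited positions, 5 of them called, and 1 of these, Eef1d, shares 277 bases with Naprt on the same strand. The longest overlap is that of Eif4enif1 with Drg1 on the other strand, 42197 bases. Among the 25 called factors the control library nearest to the CCL3 libraries was replicate 3 for 13, replicate 1 for 9 and replicate 2 for 3.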
